A study of Homo sapiens with 15 samples.

Results

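The genes described here are the NF-kB subunits and the proteins that restrain them. The 10 members were chosen by name from the rows of the deposited table, with earlier results of these data known. They are the inhibitor genes NFKBIA, NFKBIB and NFKBIE, the upstream brakes TNFAIP3 and TRAF3, and the subunit genes NFKB1, NFKB2, RELA, RELB and REL. All 10 were found among 26364 gene rows, and all 10 were among the 12002 genes tested, those whose level averaged 1 TPM or more over all libraries. TPM (transcripts per 1000000) is read count divided by gene length, scaled to the same total in each library.

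RPMI-8226 is an established human multiple myeloma line, a cancer of plasma cells. The cells, in RPMI medium with 10% fetal bovine serum, received 100 nM KB528, which the labels give as a p300 KAT (lysine acetyltransferase) inhibitor, for 1, 3, 6 or 24 h, or DMSO, given as 0 h. The genotype label is WT for the DMSO libraries and KB528 for the treated ones. The treatment label also names KB528 there, and the genotype entry was read as the treatment. Polyadenylated RNA was sequenced with strand-specific libraries, 3 in each of the 5 groups and 15 in all. Whether the 3 libraries of each group are separate cultures is not given, so the spread behind the p-values may be technical. DMSO was sampled at 1 time and all treated groups were set against the same 3 DMSO libraries, so time in culture and handling cannot be told apart from KB528. The cells are 1 cell line, and fewer cells of a kind and less RNA per cell cannot be told apart in such bulk RNA.

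NF-kB factors are dimers of subunits that share a Rel homology domain. In resting cells IkB proteins hold them in the cytoplasm. In the canonical pathway the IKK complex marks IkB proteins for degradation, which frees dimers such as p65 with p50. In the alternative pathway the kinase NIK leads to processing of p100 to p52, which partners RelB, and TRAF3 keeps NIK low. Several genes of the system, NFKBIA and TNFAIP3 among them, are themselves NF-kB targets and form negative feedback loops. Both pathways are often activated by mutation in myeloma.

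Promoter windows of 300 bases, from 250 before to 50 after a RefSeq start on GRCh38.p14, were found for 8 of the 10 members (13 windows). RELB and NFKBIE had no window. The windows were searched on both strands for the 10-base NF-kB consensus motif, with overlapping matches counted. At least 1 consensus match lay in the windows of 7 of these 8 genes and in 8 of 13 windows, whereas 5.909% of all 35116 windows and 7.094% of all 27305 genes held one. RELA had no match in either of its windows. A match is a string of letters and does not show that a factor binds there.

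The NFKBIA window is shown because this gene had the largest change of the 10 members. The 250 bases before its start (chr14:35404750-35404999, minus strand, GRCh38.p14) hold 1 match, on the strand opposite to the gene, which begins 81 bases before the start. Capitals mark the consensus match here and below.
NFKBIA: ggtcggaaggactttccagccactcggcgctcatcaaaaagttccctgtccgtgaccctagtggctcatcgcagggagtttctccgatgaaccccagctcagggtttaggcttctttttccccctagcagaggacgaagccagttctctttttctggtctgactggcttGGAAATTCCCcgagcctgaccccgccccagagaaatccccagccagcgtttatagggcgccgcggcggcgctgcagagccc

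For the other genes with a match, 30 bases around it are shown so that the matched letters can be compared. All are on the plus strand of GRCh38.p14, at chr6:137867188-137867217 for TNFAIP3, chr14:102777406-102777435 for TRAF3, chr19:38899931-38899960 for NFKBIB, chr4:102501300-102501329 for NFKB1 and chr2:60881517-60881546 for REL. NFKB2, which had further matches not printed here, is shown at chr10:102394461-102394490 (site a) and at chr10:102395674-102395703 (site b), in windows of 2 different starts.
TNFAIP3: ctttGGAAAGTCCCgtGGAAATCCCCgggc
TRAF3: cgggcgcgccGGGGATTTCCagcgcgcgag
NFKBIB: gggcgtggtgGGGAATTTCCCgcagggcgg
NFKB1: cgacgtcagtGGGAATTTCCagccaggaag
REL: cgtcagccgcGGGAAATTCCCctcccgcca
NFKB2 site a: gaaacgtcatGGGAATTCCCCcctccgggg
NFKB2 site b: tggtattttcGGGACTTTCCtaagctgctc
In NFKBIB, REL and NFKB2 site a, matches on both strands overlap, so the run in capitals is longer than a single match.

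Values are TPM, given for replicates 1, 2 and 3 of a group in that order, and means are ± SD (n = 3). Differences are log2 fold changes of TPM + 1 against DMSO unless another group is named, with the standard error (SE). Adjusted p-values come from limma across the 12002 genes, and a gene is said to rise or fall when its adjusted p is under 0.05. TPM keeps no total depth. Steps in values up to 0.1 TPM put the depth of the libraries at 0.759 to 1.12 times that of DMSO replicate 1. Plasma cell markers were present, with SDC1 at 93.9 to 257 TPM and JCHAIN at 3206 TPM or more, while FCRL5 was at or below 0.119 TPM. The summed plasma cell markers went from 5204 to 5873 TPM in DMSO to 3986 to 4152 TPM at 24 h. Summed T and NK cell markers were at or below 1.00 TPM and summed fibroblast and endothelial markers at or below 0.977 TPM. Summed mature B cell markers went from 59.9 to 68.4 TPM in DMSO to 27.3 to 28.2 TPM at 24 h, while PAX5 and CD22 were at or below 0.0849 TPM. The part of these marker shifts in the results was not tested. Of 6 epithelial markers, EPCAM was at 95.9 TPM or more and KRT18 at 106 TPM or more in every library. KRT8 and CLDN4 were at or below 4.71 TPM, CDH1 at or below 0.912 TPM and KRT19 at or below 0.0635 TPM.

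Some libraries stood apart across the members. DMSO replicate 2 was the lowest of its group for 10 of 10 members, KB528 3 h replicate 2 for 9, and KB528 6 h replicate 3 was the highest for 10 of 10. The last had the lowest spike-in share, 9.35% of its TPM, against 16.6% in the highest library. Their part in the results was not tested beyond leaving each out in turn. The scaling also matters: on log2 TPM without the added 1, median-ratio scaling moved every gene by -0.053, 0.0035, -0.16 and -0.20 at the 4 times in order. Spike-in scaling moved every gene by -0.057, -0.22, 0.19 and -0.017 on that scale. With the added 1, low genes move by less. Of all calls at 1 h, 66.5% were increases (50.9% with median-ratio scaling). At 3 h the share was 43.8% (14.0% with spike-in scaling), at 6 h 64.4% (46.6% with median-ratio and 80.6% with spike-in scaling) and at 24 h 78.7% (55.3% with median-ratio scaling). A correction for transcript length put the shares of 1, 6 and 24 h at 51.3%, 50.8% and 49.6%.

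The members, chosen with earlier results of these data known, rose more often than they fell at every time. At 1 h 8 of 10 rose and 0 fell, where 15% of all genes tested rose and 7.57% fell. At 3 h 8 rose and 0 fell, against 24.9% and 32.0% of all genes. At 6 h 10 of 10 rose, against 44.4% of all genes (24.5% fell), and at 24 h 8 rose and 1 fell, against 56.1% and 15.2%. The median log2 fold change of the members was 0.34, 0.36, 0.60 and 0.37 at 1, 3, 6 and 24 h, beside medians over all genes of 0.043, -0.042, 0.12 and 0.23. At 24 h, where 56.1% of all genes rose, the count of members is nearer to this background than at 1 h. The counts at 1 h moved with single libraries and with the scaling, and so did those of all genes. Without DMSO replicate 2, 4 members rose, where 1045 of 12006 genes did. With spike-in scaling 3 members rose, where 350 of 12016 genes did. With TPM as deposited and all libraries 1802 of 12002 genes rose. The count at 6 h moved with the scaling too. NFKBIB, NFKBIE and TRAF3 were not called there with median-ratio scaling, where 3923 of 11998 genes rose. Nor were they with spike-in scaling, where 4117 of 12016 genes rose.

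**Figure D1:**
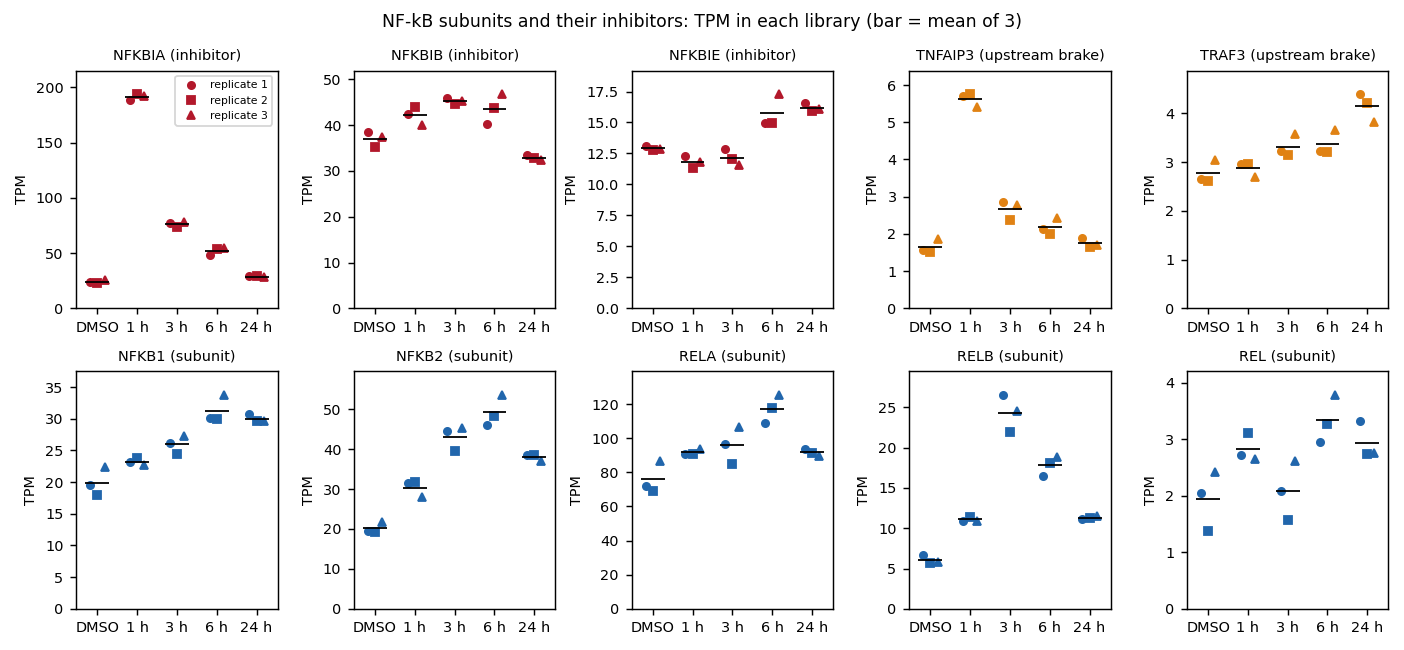
TPM of the 10 members (vertical axes, linear from 0) in each of the 15 libraries, by group (horizontal axes), with a bar at the mean of 3. NFKBIA and TNFAIP3 are highest at 1 h, RELB at 3 h, NFKB1, NFKB2, RELA and REL at 6 h, and TRAF3 and NFKBIE at 24 h, while NFKBIB is highest at 3 h and lowest at 24 h.

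The inhibitor genes did not share a time course. NFKBIA, which encodes IkB-alpha, the fast feedback inhibitor, was at 23.8, 22.7 and 25.7 TPM in DMSO and at 188, 193 and 192 TPM at 1 h. It stood at 77.5, 74.1 and 78.5 TPM at 3 h, at 48.4, 53.6 and 54.4 TPM at 6 h, and at 29.0, 29.2 and 28.1 TPM at 24 h. No 2 of the 5 groups overlapped. From 1 h on each later KB528 group was below the one before it, and all were above DMSO. NFKBIA rose by 2.94 at 1 h (SE 0.052, adjusted p = 6.79e-15), a ratio of mean TPM of 7.95. It was still up by 1.63 at 3 h (adjusted p = 3.66e-12) and by 1.08 at 6 h (adjusted p = 1.73e-10). From 1 h to 3 h it fell by 1.31 (adjusted p = 7.50e-11), from 3 h to 6 h by 0.55 (-0.14 and not called with spike-in scaling) and from 6 h to 24 h by 0.83. At 24 h the difference from DMSO was 0.25 (adjusted p = 0.000506), close to the median of all genes at that time, and with median-ratio scaling it was 0.058 and not past the threshold, nor was it with spike-in scaling (0.23).

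NFKBIB, which encodes IkB-beta, was at 38.4, 35.1 and 37.4 TPM in DMSO. It was at 42.5, 43.9 and 40.1 TPM at 1 h, 45.9, 44.6 and 45.3 TPM at 3 h, and 40.2, 43.6 and 46.7 TPM at 6 h. These 9 libraries were all above the 3 of DMSO. The increases were 0.18 at 1 h (adjusted p = 0.0250), 0.29 at 3 h (adjusted p = 0.000374) and 0.23 at 6 h (adjusted p = 0.00175). At 24 h NFKBIB was at 33.4, 32.8 and 32.4 TPM, below every other library, and fell by 0.16 (adjusted p = 0.0134). It was the 1 member that fell against DMSO. The 1 h call was lost without DMSO replicate 2 (0.15), KB528 1 h replicate 1 (0.18) or KB528 1 h replicate 2 (0.15), and the 24 h call without DMSO replicate 1 (-0.14, adjusted p = 0.0564). With median-ratio scaling the 6 h difference was 0.073 and not past the threshold, and that at 24 h was -0.36. With spike-in scaling none of the 4 differences of NFKBIB passed (0.13, 0.067, 0.41 and -0.18 in order of time).

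NFKBIE encodes IkB-epsilon, an inhibitor that acts later than IkB-alpha in feedback. It was at 13.1, 12.8 and 12.9 TPM in DMSO, at 12.3, 11.3 and 11.8 TPM at 1 h and at 12.9, 12.1 and 11.5 TPM at 3 h. The 3 libraries at 1 h were below DMSO, but the differences of -0.12 at 1 h (adjusted p = 0.164) and -0.082 at 3 h (adjusted p = 0.254) did not pass. With median-ratio scaling the 1 h difference was -0.17 and passed (adjusted p = 0.0309). At 6 h the values were 14.99, 14.93 and 17.3 TPM and at 24 h 16.6, 16.0 and 16.1 TPM, all above DMSO. NFKBIE rose by 0.26 at 6 h (adjusted p = 0.00113) and by 0.31 at 24 h (adjusted p = 0.000323). Both increases missed the threshold with median-ratio scaling (0.12 and 0.12) and with spike-in scaling (0.44 and 0.29), and the later one with the length correction (0.098).

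The upstream brakes differed as well. TNFAIP3 encodes A20, which edits ubiquitin chains on signalling proteins above IKK. It was low, at 1.58, 1.51 and 1.85 TPM in DMSO, and reached 5.72, 5.75 and 5.41 TPM at 1 h. Values were 2.85, 2.37 and 2.77 TPM at 3 h and 2.14, 2.01 and 2.42 TPM at 6 h, above DMSO in each library. At 24 h, with 1.89, 1.65 and 1.71 TPM, the groups overlapped. TNFAIP3 rose by 1.33 at 1 h (SE 0.077, adjusted p = 1.06e-08), by 0.47 at 3 h (adjusted p = 0.000107) and by 0.27 at 6 h (adjusted p = 0.00598). The 24 h difference was 0.056 (95% interval -0.11 to 0.22, adjusted p = 0.527), and with the transcript length correction it was -0.22 and passed (adjusted p = 0.00324). With that correction the 6 h increase was 0.078 (adjusted p = 0.231). With spike-in scaling the 3 h increase was 0.31 (adjusted p = 0.185). At this low level the + 1 in the logarithm shrinks the change: the ratio of means at 1 h was 3.42.

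TRAF3 encodes the adaptor that keeps NIK low, and its highest values came last. It was at 2.65, 2.62 and 3.05 TPM in DMSO and at 2.95, 2.97 and 2.70 TPM at 1 h, which overlap. It was at 3.23, 3.15 and 3.57 TPM at 3 h, 3.23, 3.20 and 3.66 TPM at 6 h, and 4.38, 4.21 and 3.82 TPM at 24 h. TRAF3 rose by 0.20 at 3 h (adjusted p = 0.0335), 0.21 at 6 h (adjusted p = 0.0196) and 0.45 at 24 h (adjusted p = 6.89e-05). From 6 h to 24 h it rose by 0.24 (adjusted p = 0.00991), the 1 member that rose in that interval, but not with spike-in scaling (0.071). TRAF3 was not called at 3 h without DMSO replicate 1 (0.17) or 2 (0.17), KB528 3 h replicate 1 (0.21) or KB528 3 h replicate 3 (0.15). At 6 h it was not called without DMSO replicate 1 (0.19) or 2 (0.18), or without KB528 6 h replicate 3 (0.16). Scaling moved these increases further. With spike-in scaling no TRAF3 difference passed, and that at 3 h was 0.0255 (adjusted p = 0.928). At 6 h the difference was 0.091 with median-ratio scaling and 0.031 with the length correction, neither past the threshold.

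**Figure D2:**
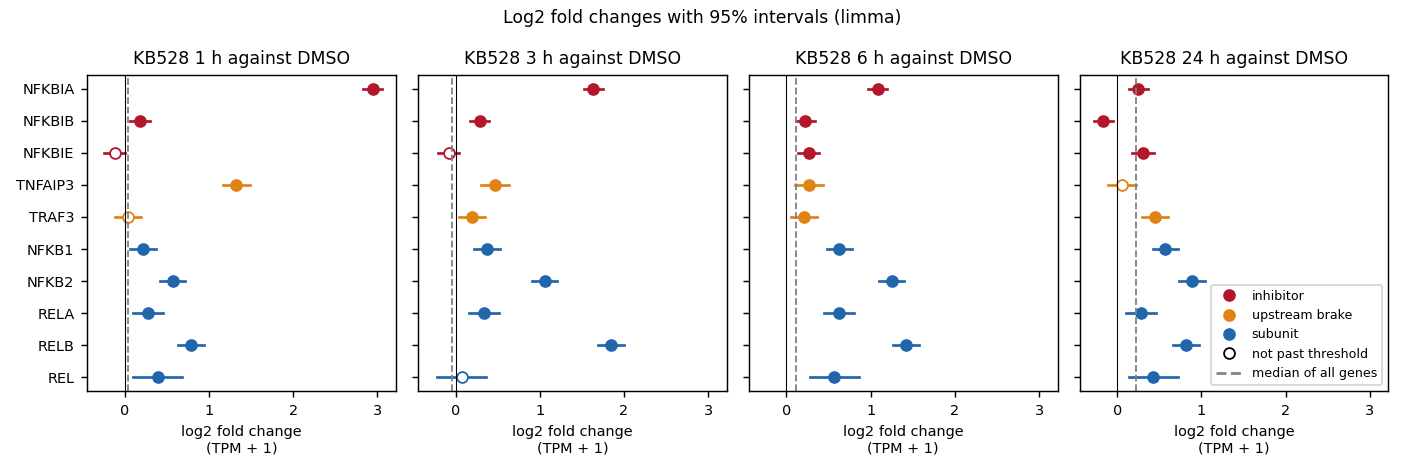
Log2 fold change of TPM + 1 against DMSO (horizontal axis) of each member at 4 times, with 95% intervals from limma; colours give the role, open points did not pass the threshold, and the dashed line is the median of all genes. NFKBIA has the largest value at 1 h (2.94) and RELB at 3 h (1.85).

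Among the subunits, the genes of the alternative pathway had the largest increases. RELB, which encodes the partner of p52, was at 6.67, 5.69 and 5.75 TPM in DMSO and at 10.9, 11.5 and 11.0 TPM at 1 h. It reached 26.6, 22.0 and 24.6 TPM at 3 h, then 16.5, 18.1 and 18.8 TPM at 6 h and 11.2, 11.3 and 11.5 TPM at 24 h. Every treated library was above every DMSO library, and those at 1 h and 24 h overlapped. RELB rose by 0.78 at 1 h (adjusted p = 1.62e-06), 1.85 at 3 h (SE 0.072, adjusted p = 2.63e-11), 1.42 at 6 h (adjusted p = 3.74e-10) and 0.81 at 24 h (adjusted p = 1.90e-07). From 1 h to 3 h it rose by 1.07 (adjusted p = 1.89e-08), and it then fell by 0.43 to 6 h (adjusted p = 0.000148) and by 0.61 to 24 h (adjusted p = 2.79e-06). The first of these falls was -0.035 with spike-in scaling and did not pass.

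NFKB2, which encodes p100, the precursor of p52 that also acts as an inhibitor, was at 19.4, 19.3 and 21.6 TPM in DMSO. It was at 31.5, 31.6 and 27.9 TPM at 1 h, 44.5, 39.4 and 45.2 TPM at 3 h, 46.1, 48.2 and 53.6 TPM at 6 h and 38.6, 38.5 and 37.1 TPM at 24 h. All treated libraries were above DMSO. NFKB2 rose by 0.57 at 1 h (adjusted p = 3.23e-05), 1.06 at 3 h (adjusted p = 7.50e-09), 1.25 at 6 h (SE 0.070, adjusted p = 9.73e-10) and 0.89 at 24 h (adjusted p = 5.56e-08). It rose again from 1 h to 3 h (0.49, adjusted p = 4.30e-05) and from 3 h to 6 h (0.19, adjusted p = 0.0297), and fell by 0.36 from 6 h to 24 h (adjusted p = 0.000301). The increase from 3 h to 6 h was not called with median-ratio scaling (0.034), the length correction (0.027) or no filter, nor without KB528 3 h replicate 2 (0.13) or KB528 6 h replicate 3 (0.13). With spike-in scaling the increases against DMSO at 1 h (0.51) and from 1 h to 3 h (0.33) were not called.

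NFKB1, which encodes p105 and through it p50, was at 19.5, 17.9 and 22.3 TPM in DMSO and at 23.1, 23.8 and 22.7 TPM at 1 h. It was at 26.2, 24.5 and 27.3 TPM at 3 h, 30.1, 29.9 and 33.8 TPM at 6 h and 30.7, 29.6 and 29.6 TPM at 24 h. The 12 treated libraries were above the 3 of DMSO, and 6 h and 24 h overlapped. NFKB1 rose by 0.37 at 3 h (adjusted p = 0.000331), 0.63 at 6 h (adjusted p = 1.36e-06) and 0.57 at 24 h (adjusted p = 4.14e-06). The 0.22 at 1 h (adjusted p = 0.0370) was not past the threshold without DMSO replicate 1 (0.21) or 2 (0.15), or without KB528 1 h replicate 1 (0.22), 2 (0.20) or 3 (0.23). With spike-in scaling the difference at 3 h was 0.16 and was not called either.

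RELA, which encodes p65, was the most abundant member in DMSO, at 72.0, 68.9 and 86.6 TPM. It was at 91.0, 90.6 and 93.9 TPM at 1 h, 96.8, 84.7 and 107 TPM at 3 h, 109, 118 and 126 TPM at 6 h and 94.0, 91.6 and 89.8 TPM at 24 h. Only the 3 h libraries overlapped with DMSO, where replicate 3 was high. RELA rose by 0.28 at 1 h (adjusted p = 0.0262), 0.34 at 3 h (adjusted p = 0.00294), 0.63 at 6 h (adjusted p = 7.99e-06) and 0.28 at 24 h (adjusted p = 0.00757). The 1 h call was lost without DMSO replicate 1 (0.25) or 2 (0.21), or without KB528 1 h replicate 1 (0.29), 2 (0.29) or 3 (0.26). With spike-in scaling the 3 h difference was 0.12 (adjusted p = 0.687). The 24 h difference was 0.081 with median-ratio scaling (adjusted p = 0.283), 0.047 with the length correction (adjusted p = 0.511) and 0.26 with spike-in scaling (adjusted p = 0.338).

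REL, which encodes c-Rel, was low, at 2.04, 1.38 and 2.42 TPM in DMSO, 2.73, 3.11 and 2.65 TPM at 1 h and 2.08, 1.57 and 2.62 TPM at 3 h. It was at 2.95, 3.27 and 3.78 TPM at 6 h and 3.31, 2.74 and 2.75 TPM at 24 h. The DMSO and 3 h groups overlapped, and the other treated groups were above DMSO. REL rose by 0.57 at 6 h (SE 0.14, adjusted p = 0.00160) and by 0.43 at 24 h (adjusted p = 0.0102). The 24 h call was lost without DMSO replicate 2 (0.28, adjusted p = 0.0667), with the length correction (0.14) and with spike-in scaling (0.41). At 3 h the difference was 0.071 (95% interval -0.22 to 0.36, adjusted p = 0.671). The 0.39 at 1 h (adjusted p = 0.0490) lay just inside the threshold and was not called in 17 of 23 alternative fits. Among them were those without DMSO replicate 1, without DMSO replicate 2 and without any single 1 h library (0.24 to 0.43).

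Within a library, ratios between members do not change under a scaling by 1 factor per library, as in median-ratio or spike-in scaling. The transcript length correction moves genes by their length and can change them. No ratio was computed with it. The summed IkB transcripts over the summed subunit transcripts were 0.600 ± 0.045 in DMSO. With KB528 they were 1.54 ± 0.012 at 1 h and 0.704 ± 0.052 at 3 h, then 0.508 ± 0.0076 at 6 h and 0.447 ± 0.0027 at 24 h. The ratio was above DMSO in all 3 libraries at 1 h and at 3 h, and below it in all 3 at 6 h and at 24 h. The mean IkB sum itself was 111 TPM at 6 h and 77.8 TPM at 24 h, against 74.0 TPM in DMSO. The mean subunit sum was 219 and 174 TPM, against 124 TPM in DMSO. It includes NFKB2, whose product p100 also acts as an inhibitor. NFKBIA made up 32.5% of the IkB transcripts in DMSO, and 78.0%, 57.2%, 46.8% and 37.0% at 1, 3, 6 and 24 h. NFKBIB went from 50.0% in DMSO to 17.2% at 1 h and 42.2% at 24 h.

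Among the subunit transcripts, RELA went from 61.2% in DMSO to 50.1% at 3 h and 52.7% at 24 h. RELB went from 4.92% in DMSO to 12.7% at 3 h and 6.51% at 24 h, and NFKB2 from 16.3% to 22.5% and 21.9%. NFKB2 over NFKB1 was 1.02 ± 0.058 in DMSO. It was 1.31 ± 0.068 at 1 h and 1.65 ± 0.044 at 3 h, then 1.58 ± 0.041 at 6 h and 1.27 ± 0.027 at 24 h, above DMSO in every treated library. TNFAIP3 over TRAF3 was 0.593 ± 0.015 in DMSO, 1.96 ± 0.037 at 1 h and 0.423 ± 0.029 at 24 h. No test was made on these ratios.

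**Figure D3:**
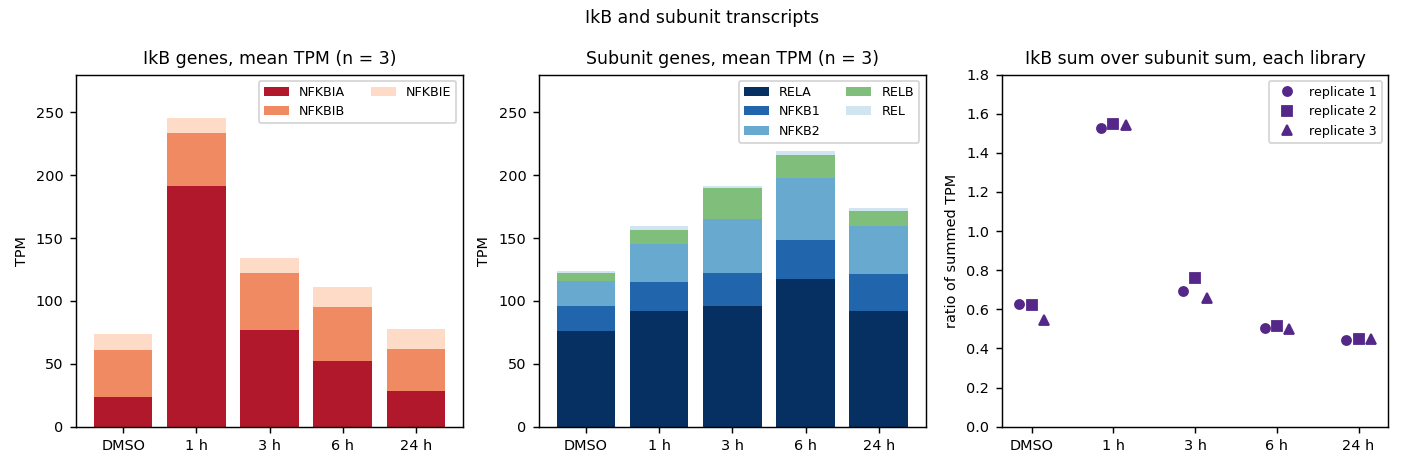
Stacked mean TPM of the 3 IkB genes and of the 5 subunit genes (bars from 0, n = 3), and the ratio of the summed TPM in each library (points). The ratio is 1.54 at 1 h against 0.600 in DMSO and 0.447 at 24 h.

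The time of the highest mean was thus 1 h for NFKBIA and TNFAIP3, 3 h for RELB and NFKBIB, 6 h for NFKB1, NFKB2, RELA and REL, and 24 h for TRAF3 and NFKBIE. The highest group and the next one did not pass the test of their difference for NFKBIB at 3 h and 6 h (adjusted p = 0.368), NFKB1 at 6 h and 24 h (adjusted p = 0.487), REL at 6 h and 24 h (adjusted p = 0.381) and NFKBIE at 24 h and 6 h (adjusted p = 0.544). RELA was higher at 6 h than at 3 h by 0.29, but not past the threshold with median-ratio scaling (0.13) or the length correction (0.14). TRAF3 was higher at 24 h than at 3 h by 0.25. This was 0.090 with median-ratio scaling and -0.082 with the length correction, neither past the threshold. From 1 h to 3 h 2 members rose and 2 fell (15.2% and 31.8% of all genes), from 3 h to 6 h 5 rose and 3 fell (42.3% and 13.7%), and from 6 h to 24 h 1 rose and 6 fell (41.0% and 26.0%). Over the 15 libraries, on log2(TPM + 1), NFKBIA and TNFAIP3 had a Pearson r of 0.97, NFKB1 and NFKB2 of 0.90 and NFKB2 and RELB of 0.89, whereas NFKBIA and NFKB1 had one of -0.022. These libraries fall into 5 groups and share each library's scaling, so the values are descriptions.

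Under the naming rule, the genes most like each member were those with the highest r over the 15 libraries among 9320 genes with at least 5 TPM. For NFKBIA they were ZC3H12A (0.99), CCT6P1 (0.97), whose reads may be shared with CCT6A, and the AP-1 subunit gene JUNB (0.97). ZC3H12A encodes the RNase Regnase-1, a restraint on inflammatory transcripts. For TNFAIP3 they were MDM2 (0.98), NFKBIA (0.97) and the survival gene MCL1 (0.96). For RELB they were WDR47 (0.98), DBR1 (0.98) and ORC6 (0.97), and for NFKB2 ZRANB1 (0.98), GTF3C5 (0.98) and TTC19 (0.98). For RELA they were CASC3, SF3B4 and SP2 (0.99, 0.99 and 0.98), for NFKB1 APLP2, MAP1LC3B and TTC31 (0.98 each) and for REL ZHX2, PRPF8 and PRRC2C (0.97, 0.96 and 0.96). For NFKBIB they were CHKA, DUS3L and GORASP2 (0.97, 0.96 and 0.96), for NFKBIE CCNB2, CCDC77 and THOC5 (0.97, 0.96 and 0.96), and for TRAF3 VPS16, PSKH1 and MYO19 (0.95 each).

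The other genes of the pathway were taken from 8 lists with 125 different genes, of which 87 were tested. At 1 h 20 of the 87 rose and 7 fell, beside 15% and 7.57% of all genes. At 3 h 31 rose and 29 fell (24.9% and 32.0% of all genes), at 6 h 51 and 21 (44.4% and 24.5%), and at 24 h 53 and 16 (56.1% and 15.2%). These all-gene shares are the background for each list below. Their medians were 0.073, 0.036, 0.28 and 0.27, nearer to those of all genes than the members' medians were at 1 h and 3 h. With spike-in scaling 5 rose and 0 fell at 1 h, where 350 of all 12016 genes rose and 122 fell.

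Of 20 listed receptor genes 12 were tested. Of these 0 rose and 5 fell at 1 h, and 3 rose and 7 fell at 3 h. At both 6 h and 24 h 3 rose and 6 fell. Of all genes 32.0% fell at 3 h, 24.5% at 6 h and 15.2% at 24 h. TLR4, a sensor of bacterial lipopolysaccharide, fell from 11.8 ± 1.50 to 2.75 TPM at 3 h (-1.77, adjusted p = 1.39e-10) and stayed lower, at 3.03 TPM at 24 h (-1.67). TLR6 and TLR1, partners of TLR2, fell by 1.73 and 1.43 at 3 h and were higher than DMSO at 6 h (0.32 and 0.52) and at 24 h (0.41 and 0.30). The 24 h increases were not called with spike-in scaling (0.39 and 0.28), nor was that of TLR1 with the length correction (0.076). Of the ligand genes 2 of 11 were tested: CD70 rose by 0.41 at 1 h and TNFSF13, which encodes APRIL, by 0.53 at 24 h. TNFSF13 met the naming minimum of 5 TPM only through its 24 h level (7.43 TPM, against 4.83 TPM in DMSO). Its naming is therefore not independent of that increase. At 3 h TNFSF13 fell by 0.22, a call lost with no filter and with spike-in scaling (-0.40). The CD70 call was lost with no filter, with spike-in scaling (0.36) and without DMSO replicate 1 (0.40), DMSO replicate 2 (0.34) or KB528 1 h replicate 1 (0.32).

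Of 19 adaptor and ubiquitin ligase genes, 4 rose and 1 fell at 1 h, 7 and 7 at 3 h, 11 and 5 at 6 h, and 14 and 1 at 24 h, where the shares of all genes that rose were 15%, 24.9%, 44.4% and 56.1%. TRAF1, an adaptor and NF-kB target, fell from 10.6 to 2.71 TPM at 6 h (-1.64) and was at 10.4 TPM at 24 h, where it differed by -0.020 (adjusted p = 0.849). The latter difference passed with median-ratio scaling (-0.20) and with the length correction (-0.30). TRAF5 fell by 1.41 at 3 h, and RIPK1, a kinase that carries signals from TNF receptors, rose by 1.01 at 3 h and by 1.10 at 6 h. Of 12 kinase genes 0 rose and 0 fell at 1 h, 3 rose and 5 fell at 3 h, 8 and 3 at 6 h, and 9 and 1 at 24 h, where 56.1% of all genes rose. CHUK, which encodes IKK-alpha, rose by 0.65 at 6 h, MAP3K3 by 0.72 at 6 h and TAB3 by 0.71 at 24 h. Of 5 genes for ubiquitination of IkB and p100, 0 changed at 1 h, 1 rose and 2 fell at 3 h, 3 rose and 0 fell at 6 h, and 3 rose and 1 fell at 24 h. FBXW11 and SKP1 rose by 0.27 and 0.32 at 6 h, but not with the length correction (0.073 and 0.14), nor FBXW11 with spike-in scaling (0.45). CUL1 fell by 0.22 at 3 h, a call lost with spike-in scaling (-0.44).

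Of 19 genes for other nuclear IkB proteins and restraints, 5 rose and 0 fell at 1 h, 8 and 2 at 3 h, 17 and 0 at 6 h, and 16 and 0 at 24 h. Of all genes 15%, 24.9%, 44.4% and 56.1% rose at these times. The median at 6 h was 0.47, beside 0.12 over all genes. ZC3H12A followed NFKBIA, from 6.61 to 16.6 TPM at 1 h (1.21, adjusted p = 1.87e-09) and back to 6.75 TPM at 24 h (0.027, adjusted p = 0.698). At 24 h it was lower than DMSO with median-ratio scaling (-0.15, adjusted p = 0.0154) and with the length correction (-0.19, adjusted p = 0.00210). NFKBIZ, which encodes IkB-zeta, rose by 1.78, 1.08, 0.82 and 0.43 at 1, 3, 6 and 24 h (not called at 24 h with spike-in scaling, 0.42); it was chosen after its values were seen. NFKBID and TNIP2, which encode another nuclear IkB and a partner of A20, rose by 0.94 and 0.91 at 6 h.

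Of 32 listed transcriptional target genes 14 averaged 1 TPM or more over all libraries, treated ones included, and were tested. Of these 10 rose and 1 fell at 1 h, and 9 rose and 3 fell at 3 h. At 6 h 8 rose and 5 fell, and at 24 h 6 rose and 5 fell. The shares of all genes that rose were 15%, 24.9%, 44.4% and 56.1%, so at 24 h the list lay below the background. CXCL10, a chemokine gene also driven by interferon, went from 4.39 TPM in DMSO to 29.9 TPM at 24 h (2.53, adjusted p = 3.90e-11). SQSTM1, which encodes the autophagy receptor p62, rose by 1.39 at 6 h, and TNFAIP8 fell by 1.47 at 3 h. The list of a myeloma NF-kB signature held 6 genes and none of the 10 members, so its counts do not stand for a whole signature. BIRC3 and MALT1 are also in the adaptor list. Of the 6 genes 1 rose at 1 h, and 2 rose and 2 fell at 3 h. At both 6 h and 24 h 3 rose and 2 fell, where 44.4% and 56.1% of all genes rose. MALT1 rose by 0.55 at 6 h. The other 5 were chosen after their values were seen: at 6 h BIRC3 rose by 0.33 and IL2RG by 0.28, PLEK fell by 1.43 and WNT10A by 0.94, and CD74 differed by -0.052 (adjusted p = 0.420). With the length correction BIRC3 was not called (0.14), and with median-ratio scaling CD74 was lower (-0.21, adjusted p = 0.000619). IL2RG was not called with no filter, with median-ratio scaling (0.18), or without DMSO replicate 2 (0.22) or KB528 6 h replicate 3 (0.17).

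**Figure D4:**
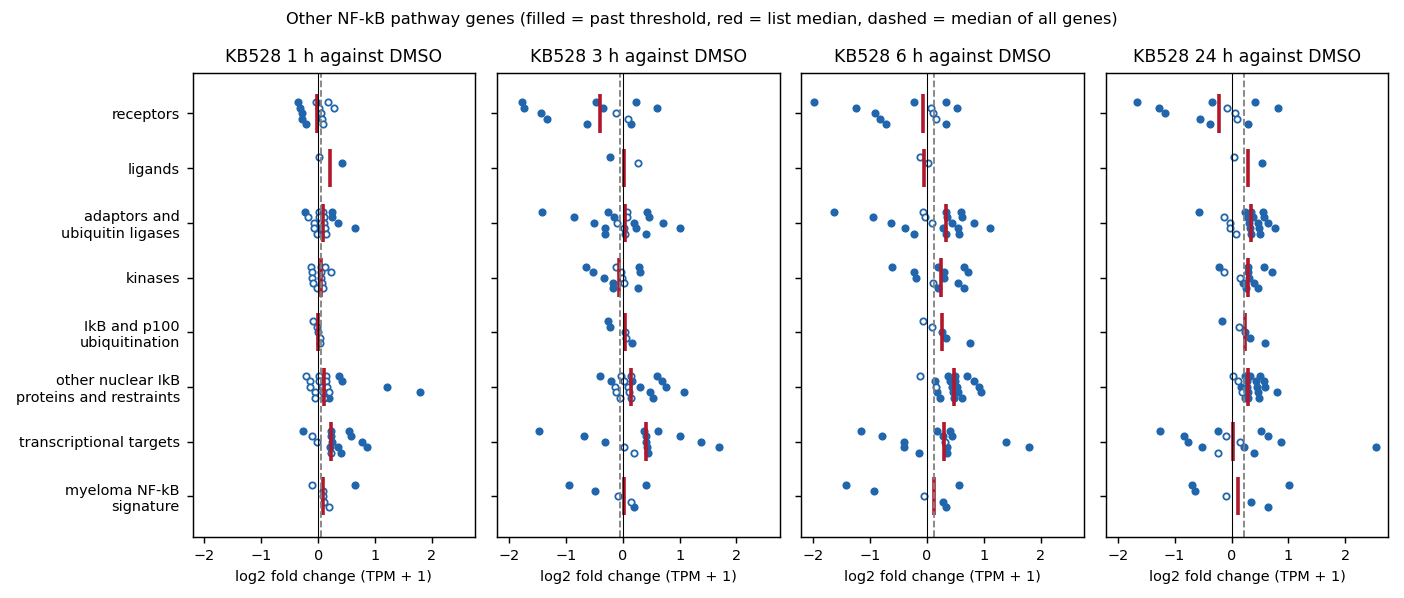
Log2 fold change of TPM + 1 against DMSO (horizontal axis) of the tested genes of 8 pathway lists at 4 times; filled points passed the threshold, red lines are list medians, and the dashed line is the median of all genes. The median of other nuclear IkB proteins and restraints is 0.47 at 6 h and that of receptors is -0.40 at 3 h.

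Of the 40 differences of members from DMSO, 35 passed the threshold, and 15 of these passed under each alternative that tested the gene (24, or 23 for TNFAIP3 and REL, which fall below the filter of 5 TPM). The 15 were NFKBIA at 1, 3 and 6 h, RELB at all 4 times, NFKB2 at 3, 6 and 24 h, NFKB1 at 6 and 24 h, RELA and REL at 6 h, and TNFAIP3 at 1 h. The other 20 were lost under at least 1 alternative.

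**Figure D5:**
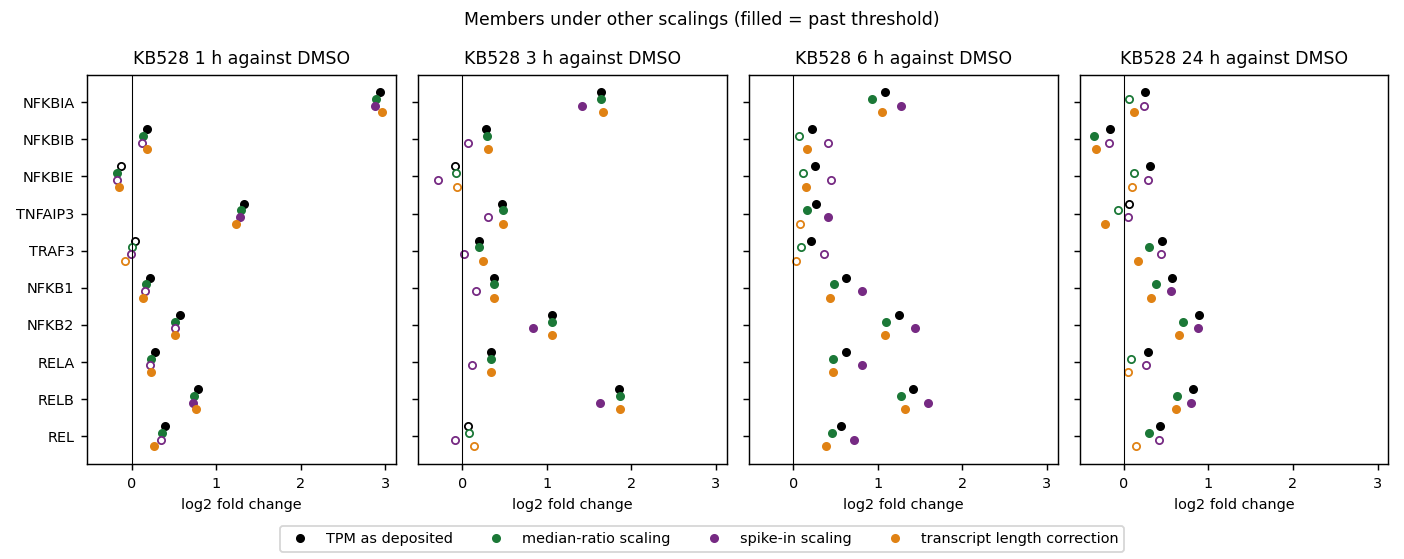
Log2 fold change against DMSO (horizontal axis) of each member with TPM as deposited and under 3 other scalings; filled points passed the threshold. NFKBIA at 1 h lies between 2.89 and 2.99 over the 24 alternatives, whereas at 24 h it lies between 0.058 and 0.30.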

How the data were processed

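RNA of 15 libraries from RPMI-8226 cells (5 groups of 3) was measured by sequencing. The authors deposited 1 table of TPM values, in which each column sums to 1000000. Per the submitters' processing notes, STAR, featureCounts, FastQC and MultiQC were used with the genome build hg19, without versions. Of 26456 rows, 92 were ERCC spike-ins, which were left out of the tests. Column names call the DMSO libraries untreated. All columns were assigned through the time and replicate in their names, and 0 columns were unused. TPM keeps no depth, which limits what is known of the precision of low genes, and relative depth was read from the steps of the lowest values.

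The tested genes averaged 1 TPM or more. The model was fitted to log2(TPM + 1) by limma 3.58.1 (R 4.3.3; lmFit and eBayes with a variance trend), all 15 libraries in 1 fit, with Benjamini-Hochberg adjustment over 12002 genes within each contrast and a threshold of 0.05. The added 1 shrinks differences of low genes on this log2 scale. The fit was also run on simulated data with independent noise in each gene. Shifts shared by many genes of a library were not simulated, so the simulation does not cover them. Python 3.11.15, numpy 2.4.6, pandas 2.3.3 and matplotlib 3.10.9 made the tables and figures. Promoter windows came from RefSeq on GRCh38.p14 and transcript lengths from GENCODE. No coordinate of the hg19 data was used.

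The members and the pathway lists were chosen with earlier results of these data known. All 10 members are named. From each list the rule named up to 3 genes that averaged 5 TPM or more and had the largest called difference from DMSO whose 3 treated libraries lay on 1 side of DMSO, and for each member the 3 genes with the highest r. Alternatives were a filter of 5 TPM, no filter, a pseudocount of 0.1, median-ratio and spike-in scaling, a block by replicate number, a fit without a variance trend, a fit of only the groups compared, and leaving out each library. For DMSO with 6 h, deviations from the group means correlated at 0.29, 0.26 and 0.35 in the 3 same-number pairs. This is a hint of pairing from the data and not from the labels. These 2 groups were picked from the correlations themselves. The 3 values are not independent, because deviations within a group cancel, and the pairing was not tested. The transcript length correction was chosen after seeing the data.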

Additional observations from a re-analysis of the deposited data

Results flagged for a closer look

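NFKBIB differed between KB528 times in the limma test of the difference itself, with a higher level than DMSO at 1, 3 and 6 h and a lower one at 24 h. The log2 difference of 24 h was -0.35 from 1 h (adjusted p = 3.94e-05), -0.45 from 3 h (adjusted p = 2.00e-06) and -0.39 from 6 h (adjusted p = 1.31e-05). In each of these comparisons the 3 libraries at 24 h (32.4 to 33.4 TPM) were below the other 3. With spike-in scaling the differences from 1 h (-0.31, adjusted p = 0.230) and from 3 h (-0.25, adjusted p = 0.284) did not pass. Groups of 3 libraries were not tested for single outlying libraries.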

How the results depend on the processing

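The number of members that rose was 8, 8, 10 and 8 at 1, 3, 6 and 24 h. At the first it was 5 with no filter (1508 of all 22424 genes) and 5 with only the compared groups (1195 of 11963). It was 4 to 8 when 1 library was left out, where 1045 to 2900 of all genes rose. With spike-in scaling it was 3 at 1, 3 and 24 h alike, where 350, 412 and 2441 of all 12016 genes rose. At 6 h NFKBIB, NFKBIE and TRAF3 were not called with median-ratio scaling (3923 of all 11998 genes rose) or spike-in scaling (4117 of 12016). TNFAIP3 and TRAF3 were not called at 6 h with the length correction (4115 of 11318). The number at 24 h was 5 with median-ratio scaling (4452 of all 11998 genes) and 5 with the length correction (3784 of 11318). Members that fell at 1 h were 1 with median-ratio scaling (1791 of all 11998 genes) or the length correction (1624 of 11318). At 24 h they were 0 with spike-in scaling (659 of all 12016 genes) and 2 with the length correction (3852 of 11318). They were 0 to 1 when 1 library was left out, where 1602 to 1970 of all genes fell. Between times, members that rose from 1 h to 3 h were 1 with spike-in scaling, where 81 of all 12016 genes rose. They were 5 with median-ratio scaling (2939 of 11998 genes) and 5 with the length correction (3201 of 11318). With a filter of 5 TPM, which leaves TNFAIP3 untested, 1 fell (2872 of 9320 genes). From 3 h to 6 h 2 rose with median-ratio scaling (3103 of 11998 genes) and 2 with the length correction (3079 of 11318). With spike-in scaling 0 fell (232 of 12016 genes), and with the length correction 5 fell (3374 of 11318). From 6 h to 24 h TRAF3 alone rose, where 41.0% of all genes did, and with spike-in scaling 0 members rose. A filter of 5 TPM leaves TRAF3, at a mean of 3.29 TPM, untested.

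Of other pathway genes, spike-in scaling left 5 higher and 0 lower at 1 h, 7 higher at 3 h, 12 lower at 6 h and 18 higher at 24 h. Of all 12016 genes it left 350 higher and 122 lower, 412 higher, 992 lower and 2441 higher in that order. With median-ratio scaling 14 were lower at 1 h and 25 at 24 h, beside 1791 and 3597 of all 11998 genes. With the length correction 15 were lower at 1 h, and 32 were higher and 28 lower at 24 h. Of all 11318 genes these counts were 1624, 3784 and 3852. When 1 library was left out, 4 to 8 were lower at 1 h, beside 530 to 1042 of all genes.

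Sign changes of differences past the threshold in at least 1 of the 2 fits were these 14. They arose under spike-in scaling for SKP1 (-0.057) and MALT1 (-0.014) at 3 h, for TNFAIP3 from 3 h to 6 h (0.10) and for NFKB2 from 3 h to 24 h (0.031). ZC3H12A at 24 h was -0.15 with median-ratio scaling. With the length correction TNFAIP3 (-0.22), SKP1 (-0.060), ZC3H12A (-0.19) and SQSTM1 (-0.0050) changed sign at 24 h. So did RELB from 1 h to 24 h (-0.14), TRAF3 from 3 h to 6 h (-0.21) and to 24 h (-0.082), and NFKB1 (-0.055) and REL (-0.0038) from 3 h to 24 h. Differences past the threshold in neither fit changed sign 69 times over 30 results, 16 times with spike-in scaling, NFKBIB from 3 h to 6 h (0.34) among them. The cause was not tested.

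Deviations from group means correlated at -0.29 to 0.63 between libraries of 1 replicate number, and 9 of 30 such pairs were over 0.1. All 3 pairs were over 0.1 for DMSO with 6 h and for no other 2 groups. For DMSO with 3 h the pairs were at -0.29, 0.52 and 0.63. Whether libraries of 1 number belong together elsewhere was not tested. With the replicate number as a block, 8, 8, 10 and 8 members rose at the 4 times. Of all 12002 genes 1982, 3035, 5388 and 6786 rose at these times. No call of a member against DMSO changed with this block, and 10 of 15 libraries correlated best with one of their own number.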
